A study of Homo sapiens with 64 samples.

Results

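RKO is a human colorectal cancer cell line grown here as non-adherent spheroids with bFGF and EGF, and its label-retaining cells (LRCs) were compared with the remaining cycling cells (non-LRCs, labelled BULK). Cells were loaded with CFSE, a dye that binds protein covalently and is divided between daughter cells at each division, so that cells which still held a high dye level at the sort on day 6 had divided little. The members were chosen by their labels alone, as the 4 RKO LRC samples and the 4 RKO non-LRC samples, and they are 8 of the 64 samples of the series. All 8 samples had taken up the dye, and the labels give none of them a further treatment or a genetic change. The other sorted samples were LRCs and non-LRCs of 5 further lines, HT55, SW948, SW48, DLD1 and HCT15, with 4 samples of each population. A further 16 samples were unsorted DLD1 cells with or without CFSE, labelled day 1 or day 5, and the 8 of day 5 served here as a control for the dye. RKO is 1 established line, and nothing in the labels says whether replicates came from separate cultures, so every p-value measures the spread between these samples only.

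Dormancy, or quiescence, is a reversible exit from the cell cycle. In dividing cells the RB pocket proteins are inactivated and E2F factors switch on the genes for DNA replication. The MuvB complex and B-MYB then time the genes of mitosis. The tumour suppressor p53 holds cells back by inducing the CDK inhibitor p21, encoded by CDKN1A, along with genes of DNA repair, apoptosis and metabolism. In bulk RNA, fewer cells of a type and less RNA per cell cannot be told apart, and this applies to every value given here.

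Between 12717796 and 19874005 reads were counted on genes in each RKO library, within the range of 12237225 to 20913455 in the 64 libraries. Of the 10 markers of colon epithelium looked at, 4 (KRT8, KRT18, EPCAM and CDX2) averaged at least 1 CPM (reads on a gene scaled to a common library size), and the 10 together summed to 258.4 to 308.8 CPM in LRCs and 206.4 to 243.6 CPM in non-LRCs. The differentiation markers KRT20, CDX1, VIL1 and LGALS4 were close to 0 in both groups, and the adhesion gene CDH1 lay near 1 CPM. Fibroblast markers summed to at most 0.688 CPM, endothelial markers to 1.22 CPM and leukocyte markers to 1.76 CPM in any library, the last carried by LYZ. LRC replicate 3 stood apart from the other LRCs. On an axis where the mean non-LRC is 0 and the mean LRC is 1, it lay at 0.737, against 1.12, 0.955 and 0.922 for LRC replicates 1, 2 and 4, while the non-LRCs lay between 0.00522 and 0.122. Results that its omission moved most are also given without it.

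Of 12731 genes tested with edgeR's quasi-likelihood test, 5279 (41.5%) passed a Benjamini-Hochberg adjusted p of 0.05. They comprised 2600 higher in LRCs (20.4%) and 2679 lower (21%). The 4 LRC and 4 non-LRC values did not overlap for 4738 genes (37.2%). With so many genes called, the shares in each gene group below are read against these percentages. Increases were larger than decreases. The median log2 fold change was 0.50 among genes called higher and -0.37 among those called lower, and 463 genes rose by at least 1 on the log2 scale against 45 that fell by as much. Direction also went with expression level. Among the 2547 genes of lowest expression (0.562 to 5.51 CPM), 639 were higher and 82 lower. Among the 2546 of highest expression (87.1 CPM and above), 385 were higher and 921 lower. Without LRC replicate 3 the calls numbered 2520 higher and 2596 lower.

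**Figure D1:**
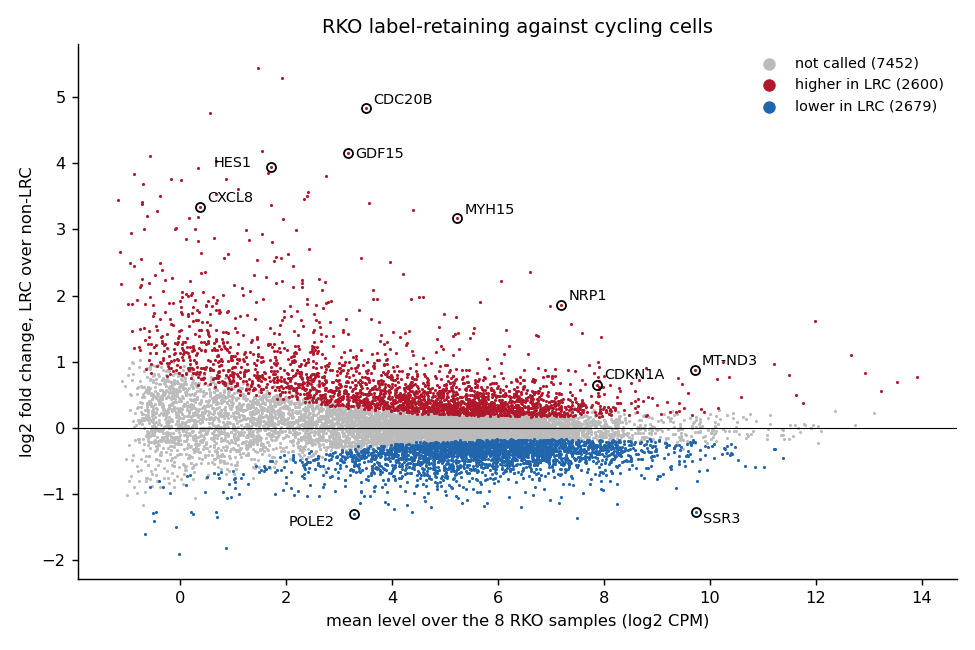
Each point is 1 of the 12731 genes tested, with its mean level over the 8 RKO samples (log2 CPM) on the x axis and its log2 fold change, LRC over non-LRC, on the y axis. Red points are the 2600 genes called higher and blue the 2679 called lower, grey ones were not called, and the largest increases reach far further from 0 than any decrease.

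The genes that copy DNA were lower in LRCs almost throughout. Of the 36 DNA replication genes tested, 33 fell and none rose, with a median log2 fold change of -0.69 beside 0.01 over all genes tested. For 31 of them every LRC value lay below every non-LRC value. POLE (-0.22), RPA1 (-0.08) and CHAF1B (-0.02) did not pass. CDC6, which loads the MCM helicase onto origins, measured 24.4, 34.7, 44.4 and 35.4 CPM in LRC replicates 1 to 4 and 82.9, 72.6, 80.0 and 70.9 CPM in the non-LRCs. No LRC value reached the lowest non-LRC, and the log2 fold change was -1.14 (SE 0.125, adjusted p = 6.035e-06). GINS2, a subunit of the active helicase, stood at 12.4, 15.2, 22.0 and 15.7 CPM in LRCs against 36.3, 33.9, 41.4 and 37.3 CPM, a log2 difference of -1.19 (SE 0.13, adjusted p = 5.921e-06). LRC replicate 3 held the highest LRC value of both genes, and without it GINS2 lay at -1.35. MCM2, a helicase subunit, gave 74.0, 87.0, 100.2 and 81.4 CPM in LRCs and 137.0, 140.4, 143.2 and 139.1 CPM in non-LRCs, again without overlap. Other parts of the machinery moved in the same direction: the polymerase epsilon subunit POLE2 (-1.29), the helicase component CDC45 (-1.17) and the sliding clamp PCNA (-0.86). Without LRC replicate 3 the list counted 34 lower and its median was -0.75.

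A short sequence motif was common in the promoters of the replication genes. Its share in the list depends on which genes the list holds and not on their RKO fold changes. RefSeq promoter windows, from 250 bases before to 50 bases after the start of transcription on GRCh38.p14, were matched for 9561 of the genes tested. An E2F motif, searched as TTTCCCGC or TTTGGCGC on both strands, was present in 16 of the 31 replication promoters matched (51.6%) and in 3.82% of all promoters. Its share was 6.14% among all genes lower in LRCs and 2.64% among those higher. The 2 replication genes of lowest p whose window held it are printed, 5′ to 3′ on the strand of the gene, with the motif in capitals.
GINS2 (chr16:85688905-85689204, minus strand): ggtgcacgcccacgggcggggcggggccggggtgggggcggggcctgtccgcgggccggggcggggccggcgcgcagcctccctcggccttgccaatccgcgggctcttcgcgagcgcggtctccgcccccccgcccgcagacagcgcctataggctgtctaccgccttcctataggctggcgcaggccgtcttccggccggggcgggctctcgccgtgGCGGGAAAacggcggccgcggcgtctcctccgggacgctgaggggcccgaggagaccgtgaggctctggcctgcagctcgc
CDC6 (chr17:40287629-40287928, plus strand): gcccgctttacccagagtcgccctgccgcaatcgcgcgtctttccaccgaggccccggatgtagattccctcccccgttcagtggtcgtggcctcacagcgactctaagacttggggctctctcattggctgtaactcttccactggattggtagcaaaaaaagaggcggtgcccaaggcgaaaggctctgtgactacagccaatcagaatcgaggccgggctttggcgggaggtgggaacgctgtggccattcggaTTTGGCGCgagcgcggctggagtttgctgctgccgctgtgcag
In GINS2 the motif began at base -31 from the start of transcription and in CDC6 at base +8. These are matches of letters, and binding was not measured.

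Genes of mitosis were lower too, less evenly. Of the 35 tested, 27 fell and none rose, with a median of -0.60. For 18 of them the groups did not overlap. The largest decreases were in the survivin gene BIRC5 (-0.96), the kinase AURKB (-0.96), both of the chromosomal passenger complex, and in the S and G2 phase cyclin CCNA2 (-0.92). CCNB2, a mitotic cyclin, read 25.9, 30.8, 45.1 and 40.6 CPM in LRCs and 65.3, 53.5, 63.9 and 63.5 CPM in non-LRCs, at a log2 fold change of -0.79 (SE 0.132, adjusted p = 2.434e-04). PLK1, the kinase that drives mitotic entry, gave 31.9, 40.6, 70.7 and 49.3 CPM in LRCs against 78.6, 69.5, 85.5 and 76.2 CPM. Its groups overlapped through LRC replicate 3 alone, and it passed at -0.69. MKI67, the proliferation marker Ki-67, spread more widely. LRCs held 119.7, 164.9, 280.0 and 245.9 CPM and non-LRCs 364.4, 338.8, 264.9 and 286.9 CPM, so that LRC replicate 3 exceeded non-LRC replicate 3. The difference of -0.63 (SE 0.188) passed at an adjusted p of 0.0135, and its call was lost with DESeq2, in the fit of 48 samples and without LRC replicate 2. Genes that did not pass included TOP2A (-0.19), CENPF (-0.08), CENPE (-0.20), INCENP (-0.24), KIF20A (-0.35), ASPM (-0.36), HMMR (-0.75) and CDK1. Without LRC replicate 3, 32 of the 35 passed and the median was -0.75. LRC replicate 3, which moved least along the axis of the comparison, was also the LRC sample nearest to the non-LRCs in CCNB2, PLK1 and MKI67.

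Mitotic promoters held a different motif. The CHR element, searched as TTTGAA on both strands, was present in 19 of 29 mitotic promoters matched (65.5%), in 9.55% of all promoters and in 0 of the 31 replication promoters. The E2F motif was found in 1 of the 29. CCAAT, on either strand, was present in 75.9% of mitotic, 61.3% of replication, 57.1% of p53-target and 37.1% of all promoters, and 16 mitotic promoters held both CHR and CCAAT. The 2 with lowest p among those are shown with both motifs in capitals, where ATTGG is CCAAT on the opposite strand and TTCAAA is the CHR on the opposite strand.
MAD2L1 (chr4:120066799-120067098, minus strand): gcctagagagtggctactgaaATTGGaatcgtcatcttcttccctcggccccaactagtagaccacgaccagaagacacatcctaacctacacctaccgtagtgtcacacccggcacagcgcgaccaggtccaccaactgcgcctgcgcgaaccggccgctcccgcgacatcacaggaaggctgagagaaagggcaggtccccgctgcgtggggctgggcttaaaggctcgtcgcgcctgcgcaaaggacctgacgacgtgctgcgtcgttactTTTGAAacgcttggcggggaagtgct
CCNB2 (chr15:59104896-59105195, plus strand): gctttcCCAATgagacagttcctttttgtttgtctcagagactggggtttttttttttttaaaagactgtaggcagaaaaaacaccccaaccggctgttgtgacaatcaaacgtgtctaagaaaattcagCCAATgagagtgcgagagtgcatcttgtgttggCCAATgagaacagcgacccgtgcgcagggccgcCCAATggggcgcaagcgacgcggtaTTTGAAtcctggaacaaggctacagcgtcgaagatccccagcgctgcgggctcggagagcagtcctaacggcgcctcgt
The CHR began at base +25 in MAD2L1, a spindle checkpoint gene, and at base -29 in CCNB2. In CCNB2, CCAAT began at bases -244, -120, -87 and -54.

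**Figure D2:**
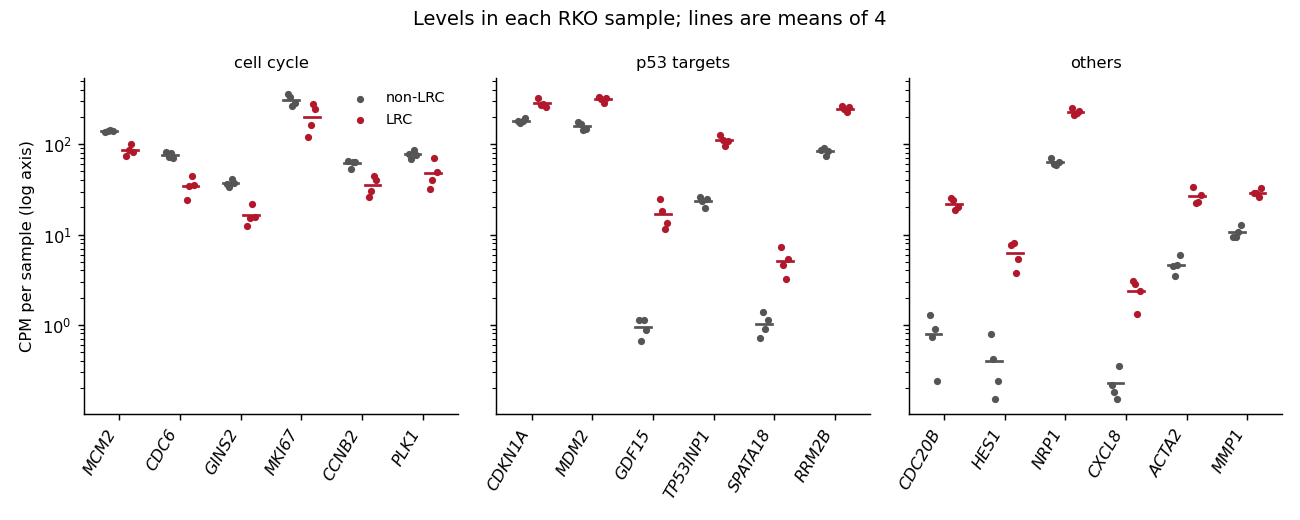
Each point is the CPM of 1 RKO sample on a log axis, grey for non-LRC and red for LRC, with a line at the mean of 4, for genes of the cell cycle, p53 targets and others. MCM2, CDC6, GINS2 and CCNB2 are separated with LRCs below, MKI67 and PLK1 overlap, and the 6 p53 targets are separated with LRCs above.

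Enzymes that supply DNA building blocks mostly fell with the replication genes. Of 21 genes of nucleotide synthesis tested, 17 fell and 1 rose, at a median of -0.33. DUT (-1.06), which removes dUTP, thymidine kinase TK1 (-1.01) and the ribonucleotide reductase subunit RRM2 (-0.72) fell. TYMS, the thymidylate synthase that 5-fluorouracil inhibits, fell by 0.63 on the log2 scale, as did the nucleoside transporter SLC29A2 by 0.70. The gene that rose was RRM2B, the reductase subunit that p53 induces. It measured 268.6, 244.6, 225.5 and 257.4 CPM in LRCs and 87.4, 90.8, 74.6 and 83.9 CPM in non-LRCs. The groups stood far apart, at a log2 fold change of 1.56 (SE 0.079, adjusted p = 1.086e-09).

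The regulators above these genes moved in both directions. Of the 26 genes of cell cycle exit and RB control tested, 10 rose and 7 fell, at a median of 0.06. The activator E2Fs E2F2 (-1.03) and E2F1 (-0.99) and cyclin E2, CCNE2 (-0.85), fell. CDKN2B, the INK4 inhibitor p15, rose most in the list. Its values were 212.4, 222.7, 181.4 and 177.4 CPM in LRCs against 62.4, 51.1, 52.1 and 56.4 CPM in non-LRCs, a log2 fold change of 1.84 (SE 0.09, adjusted p = 1.011e-09). BTG2, an antiproliferative p53 target, rose by 1.51 on the log2 scale, and the retinoblastoma gene RB1 by 0.28. Cyclin D1, CCND1, lay at 299.6, 321.5, 320.9 and 276.2 CPM in LRCs and 294.4, 307.5, 290.0 and 266.5 CPM in non-LRCs. These ranges overlapped and the difference of 0.07 did not pass (adjusted p = 0.449). The inhibitors CDKN1B (-0.16) and CDKN1C (0.10) did not pass either.

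Targets of p53 were raised nearly without exception. Of 25 tested, 24 rose and none fell, with a median of 0.75, and for 22 the groups did not overlap. TRIAP1 (0.05) was the one not called. The count and the median were the same without LRC replicate 3, 24 and 0.75. CDKN1A gave 325.6, 270.2, 282.6 and 261.9 CPM in LRCs and 179.2, 173.9, 179.7 and 194.1 CPM in non-LRCs. Every LRC exceeded every non-LRC, by a mean log2 fold change of 0.65 (SE 0.077, adjusted p = 1.193e-05). MDM2, the ubiquitin ligase that degrades p53 and is its feedback target, measured 331.6, 320.7, 290.5 and 328.5 CPM against 175.5, 169.8, 142.9 and 149.0 CPM, at 1.0 (SE 0.079). GDF15, a secreted stress cytokine, was close to absent in non-LRCs. It stood at 25.0, 18.4, 11.4 and 13.3 CPM in LRCs and 1.14, 0.663, 1.13 and 0.882 CPM in non-LRCs, a log2 fold change of 4.16 (SE 0.273, adjusted p = 3.095e-08). TP53INP1, an autophagy and apoptosis adaptor, rose from 19.9 to 26.4 CPM in non-LRCs to between 96.2 and 125.9 CPM in LRCs, at 2.22 (SE 0.098). Smaller increases that passed included the repair genes DDB2 (1.14) and XPC (0.36), the death receptor FAS (1.16), the BH3-only gene BBC3 (0.75), the metabolic regulator TIGAR (0.78) and BAX (0.24).

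RNA-binding proteins that regulate splicing were lowered together. Of 26 SR proteins and hnRNPs tested, 24 fell and none rose, at a median of -0.48, and all of the 24 were free of overlap between the groups. SRSF11 (-0.12) and SRSF5 (-0.11) were the exceptions. HNRNPD, an AU-rich element binding protein, fell furthest, from 322.4, 314.0, 332.7 and 327.4 CPM in non-LRCs to 144.1, 176.9, 187.0 and 172.1 CPM in LRCs. The log2 fold change was -0.93 (SE 0.078, adjusted p = 4.472e-07). SRSF1 (-0.84), SRSF2 (-0.84), SRSF3 (-0.81) and HNRNPA2B1 (-0.80) fell next most. Without LRC replicate 3 the same number passed, 24, and the median was -0.52.

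The respiratory chain is built from proteins of both genomes, and here the 2 sets of transcripts differed in direction. Of 32 nuclear-encoded subunits tested, 25 fell and none rose, at a median of -0.31, with no overlap for 22. NDUFB10 of complex I (-0.63), ATP5F1C of the ATP synthase (-0.62) and cytochrome c1, CYC1 (-0.56), fell most. Of the 13 protein-coding genes of the mitochondrial genome, 12 rose and none fell, at a median of 0.77. For 7 of them the groups did not overlap. MT-ND3, a complex I subunit, gave 1180.0, 1203, 919.3 and 1046 CPM in LRCs and 507.0, 539.5, 707.3 and 620.0 CPM in non-LRCs, a log2 fold change of 0.87 (SE 0.108, adjusted p = 1.893e-05). MT-CO2, a complex IV subunit, did not pass (0.26, adjusted p = 0.111). The share of all counted reads on mitochondrially encoded genes was 9.47%, 9.32%, 6.51% and 8.40% in the LRCs and 5.15%, 4.86%, 6.25% and 4.20% in the non-LRCs. LRC replicate 3 lay only just above non-LRC replicate 3. The mean was 8.43% ± 1.36 (SD, n = 4) against 5.12% ± 0.853, and an exact two-sided permutation test gave p = 0.02857, the smallest that 4 against 4 allows, or 0.10 adjusted over the 7 library measures compared. Without LRC replicate 3 all 13 genes passed and their median was 0.89. Reads outside genes moved with it, at 9.18% to 9.76% in LRC replicates 1, 2 and 4, 7.19% in LRC replicate 3 and 6.41% to 7.65% in non-LRCs, and their part in the result was not tested.

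Transcripts of cholesterol synthesis were lowered through the pathway. Of 24 genes of sterol synthesis and uptake tested, 23 fell and none rose, at a median of -0.55, and for 19 the groups did not overlap. TM7SF2 (0.01) was not called. HMGCS1, which makes HMG-CoA for the pathway, measured 114.9, 128.3, 116.6 and 159.7 CPM in LRCs and 278.2, 258.7, 219.4 and 277.2 CPM in non-LRCs. The difference was -0.99 (SE 0.103, adjusted p = 3.59e-06) with no overlap. EBP, the sterol isomerase, stood at 46.4, 42.2, 50.2 and 53.1 CPM against 94.3, 92.4, 108.2 and 101.4 CPM, at -1.05 (SE 0.082). FDPS (-0.76), which makes farnesyl diphosphate, and the mevalonate kinase MVK (-0.75) fell too. Among 9 genes of sterol efflux and LXR response tested, 2 rose (NPC2, 0.39, and LPCAT3, 0.28) and none fell. That share of 22.2% lay near the 20.4% higher among all genes tested. LPCAT3 lost its call without LRC replicate 3 (0.23, adjusted p = 0.0533), without non-LRC replicate 1 or 2 and in the fit of 48 samples. CCAAT was present in 15 of 18 cholesterol promoters matched (83.3%), against 37.1% of all promoters, 61.3% of replication promoters, 57.1% of p53-target promoters and 2 of 25 promoters of the nuclear respiratory chain (8.0%). A sterol element, searched as TCACCCCAC on both strands, was found in 1 of the 18. The EBP promoter, the first by p among those with CCAAT, is shown with that motif in capitals on either strand.
EBP (chrX:48521558-48521857, plus strand): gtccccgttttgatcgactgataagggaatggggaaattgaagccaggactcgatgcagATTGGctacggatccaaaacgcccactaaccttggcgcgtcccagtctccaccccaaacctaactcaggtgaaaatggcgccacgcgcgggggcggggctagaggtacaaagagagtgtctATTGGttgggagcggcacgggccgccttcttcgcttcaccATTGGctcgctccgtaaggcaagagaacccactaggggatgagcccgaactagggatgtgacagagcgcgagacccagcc
The matches began at bases -191, -70 and -30.

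**Figure D3:**
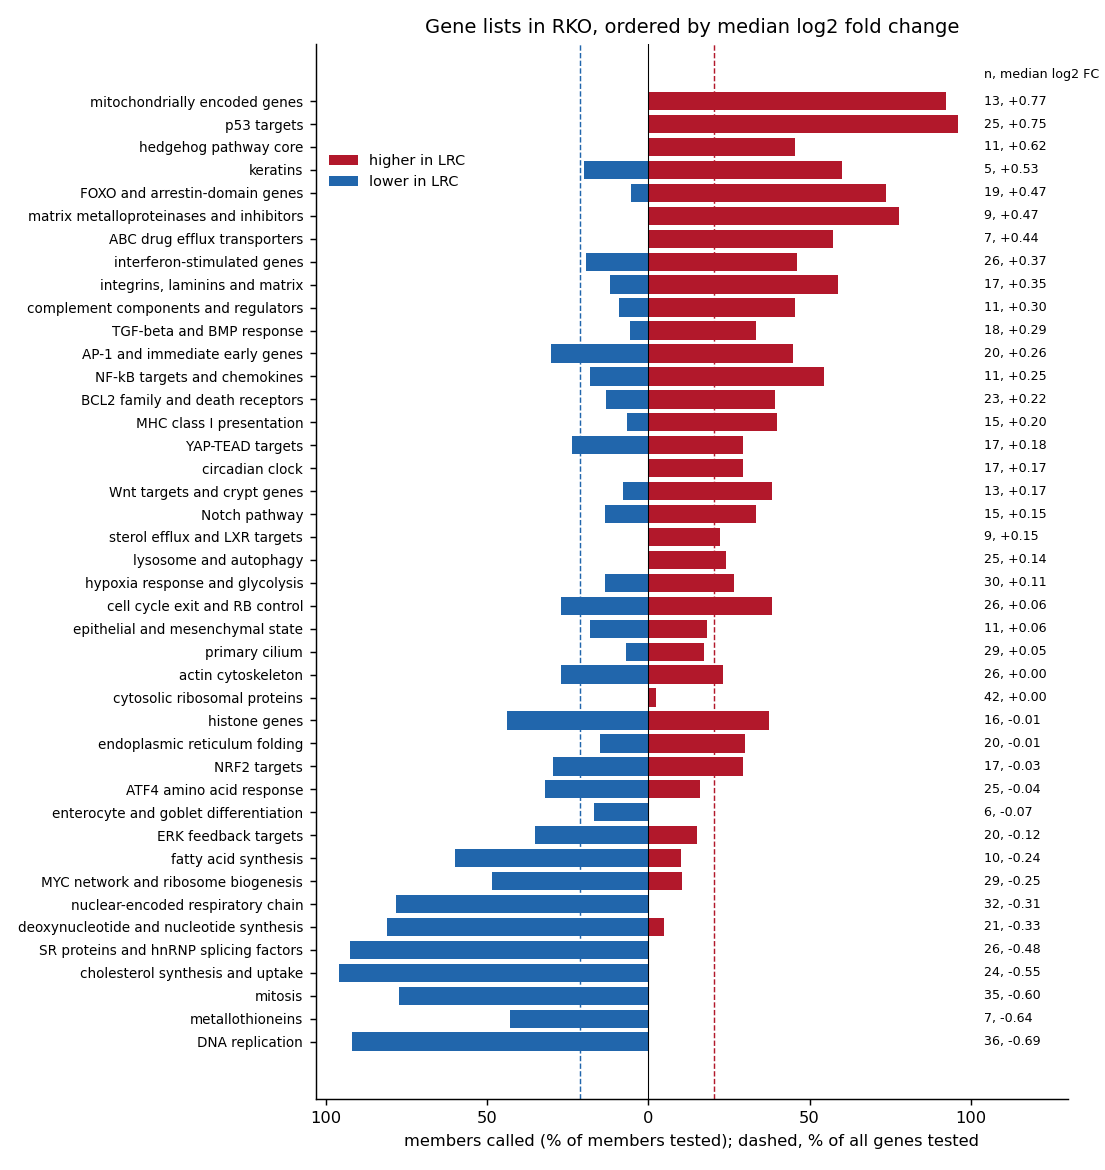
For each gene list the bars give the percent of its tested members called higher (red, right) and lower (blue, left) in RKO LRCs, ordered by median log2 fold change, with dashed lines at the 20.4% and 21% of all genes tested. The p53 targets and mitochondrially encoded genes lie at the higher end and DNA replication, mitosis and cholesterol synthesis at the lower end.

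Not every growth-related group moved with these. Of 42 cytosolic ribosomal protein genes tested, only RPS28 passed (0.28), none fell, and the median was 0.00. Its call was lost with the replicate number as a block and in 5 other settings. Leaving out LRC replicate 3 gave 3 higher, with RPS24 (0.28, adjusted p = 0.0191) and RPS27 added, DESeq2 gave 2 higher and 1 lower, and without non-LRC replicate 1 none was higher and 3 were lower. Of 29 genes of the MYC network and ribosome biogenesis tested, 14 fell and 3 rose, and the median was -0.25. MYC, at 465.7, 440.4, 422.1 and 419.6 CPM in LRCs and 589.7, 574.8, 529.7 and 637.5 CPM in non-LRCs, fell by 0.42 on the log2 scale (SE 0.074, adjusted p = 4.162e-04). Its antagonists MXD1 (0.40), MXD4 (0.38) and MNT (0.23) were the 3 that rose. Targets of ATF4, the amino acid response factor, were 4 higher and 8 lower of 25. Genes of protein folding in the endoplasmic reticulum counted 6 higher and 3 lower of 20. Without LRC replicate 4, or without non-LRC replicate 3 or 4, these were 3 and 1, and without LRC replicate 2 the lower ones were 1.

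FOXO targets and arrestin-domain genes were mostly higher. FOXO factors are active when insulin and AKT signalling is low. Of 19 tested, 14 rose and 1, ARRDC2 (-0.30), fell, at a median of 0.47. SESN3, an antioxidant regulator of TORC1, measured 13.2, 6.80, 8.95 and 9.59 CPM in LRCs against 0.929, 1.03, 0.604 and 0.765 CPM in non-LRCs, at 3.50 (SE 0.243, adjusted p = 5.595e-08). PIK3IP1, a PI3K inhibitor, rose by 1.98 on the log2 scale, the pyruvate dehydrogenase kinase PDK4 by 1.56 and the pseudokinase TRIB2 by 1.40. ERK feedback targets counted 3 higher and 7 lower of 20, with FOSL1 at -0.71 and ETV4 at -0.57.

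Hedgehog, Wnt and Notch genes gave a few large increases each beside many members that did not pass. Of the 11 hedgehog genes tested, 5 rose and none fell, at a median of 0.62. GAS1, a co-receptor at -0.85 (adjusted p = 0.0557), passed as lower without LRC replicate 3 (-1.24, adjusted p = 0.00701), without non-LRC replicate 1 and with the block. The co-receptor NRP1 read 252.6, 209.8, 222.8 and 234.7 CPM in LRCs and 70.2, 60.4, 58.9 and 64.3 CPM in non-LRCs, at 1.86 (SE 0.079, adjusted p = 3.949e-10). GLI1, a transcription factor and readout of the pathway, gave 5.15, 4.68, 4.67 and 4.50 CPM against 2.22, 2.89, 1.96 and 2.41 CPM, without overlap and at 0.98 (SE 0.172). The receptor PTCH1 (0.15), also a readout, and the repressor SUFU (0.14) did not pass, and SMO was close to 0. Of 13 Wnt and crypt genes, 5 rose, led by the progenitor factor SOX9 (1.98) and the ephrin receptor EPHB3 (1.73), and LEF1 fell (-0.49), the number that rose being 3 without LRC replicate 2 or non-LRC replicate 3 or 4. AXIN2 (0.17), a direct Wnt readout, and PTK7 (0.04) did not pass, and the stem cell marker LGR5 was close to 0. Of 15 Notch genes, 5 rose (3 without non-LRC replicate 4) and 2 fell. HES1, a Notch effector repressor, rose from 0.786, 0.422, 0.151 and 0.235 CPM in non-LRCs to 7.64, 7.99, 3.75 and 5.40 CPM in LRCs, at 3.95 (SE 0.355, adjusted p = 9.161e-07).

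Surface, matrix and immune genes were more often higher than lower. Of 17 integrins, laminins and matrix genes, 10 rose and 2 fell, at a median of 0.35. ITGA3, a laminin-binding integrin, stood at 335.4, 268.4, 260.5 and 255.1 CPM in LRCs and 110.1, 96.1, 108.1 and 101.3 CPM in non-LRCs, at 1.43 (SE 0.088). Of 9 metalloproteinases and inhibitors, 7 rose, with MMP10 at 2.13 and MMP1 at 1.47. Interferon-stimulated genes counted 12 higher and 5 lower of 26, with OAS2 (1.38), OAS1 (1.35) and IFIT2 (1.27) highest and IFITM3 (-0.31) among those lower. The number lower was 3 without LRC replicate 1 and without non-LRC replicate 3 or 4, and 2 without LRC replicate 4. Of 15 genes of MHC class I presentation, 6 rose and 1 fell, and HLA-B rose by 0.82. In the BCL2 family and death receptors, 9 rose and 3 fell of 23. Both the BH3-only genes BMF (1.40) and BCL2L11 (0.77) and the survival gene BCL2L1 (0.96) rose, and MCL1 (-0.41), a survival gene, fell. Of 7 ABC drug efflux transporters, 4 rose, with ABCC2 at 1.29 and too low to be tested without LRC replicate 1, 2 or 4 or non-LRC replicate 4, and ABCG2 (0.75) did not pass. Of 7 metallothioneins tested, 3 fell (MT1E, -1.04, MT2A, -0.90, and MT1M, -0.64) and none rose. The call of MT1M was lost in the fit of 48 samples. Metallothionein genes are close copies of each other, so the share of reads given to each is uncertain.

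Among protein-coding genes with a mean of at least 5 CPM over the 8 samples and no overlap, the largest increase was that of CDC20B (hg19 chr5:54408799-54469005, minus strand), a relative of the mitotic activator CDC20. Its levels were 25.2, 23.9, 18.6 and 20.1 CPM in LRCs and 1.29, 0.724, 0.906 and 0.235 CPM in non-LRCs. The mean was 21.9 ± 3.12 (SD, n = 4) against 0.788 ± 0.437, a log2 fold change of 4.84 (SE 0.231, adjusted p = 7.74e-10). FOXJ1 (5.43) and INPP5D (5.29), below that mean, had larger fold changes. Both reached 10 counts in 4 samples only through the LRCs, which fixed their direction and lack of overlap in advance. INPP5D had 2, 3, 4 and 2 reads in non-LRC replicates 1 to 4. GPX8 lies within CDC20B on the other strand and reads of their overlap cannot be told apart unless strand was kept, which the sources used here do not give. GPX8 itself did not pass (-0.02, adjusted p = 0.825). GDF15 (4.16) came next, then the keratin KRT79 (3.56), SESN3 (3.50), the acetyltransferase NAT16 (3.39), the tetraspanin CD82 (3.29), the myosin heavy chain MYH15 (3.18), the protease inhibitor SERPINA1 (2.70), the ubiquitin ligase NEURL1B (2.56) and smooth muscle actin ACTA2 (2.51). CD82 gave 50.6, 34.8, 35.3 and 32.3 CPM in LRCs against 4.64, 3.86, 3.92 and 3.23 CPM. MYH15 gave 77.2, 75.2, 52.4 and 65.6 CPM against 7.79, 6.15, 8.15 and 7.88 CPM. In both the lowest LRC lay several-fold above the highest non-LRC.

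Decreases chosen in the same way were smaller. POLE2 (-1.29) came first, then SSR3, a subunit of the translocon-associated protein complex of the endoplasmic reticulum. SSR3 measured 410.8, 497.6, 551.7 and 532.7 CPM in LRCs and 1193, 1238, 1200.0 and 1179 CPM in non-LRCs, at -1.27 (SE 0.089, adjusted p = 5.609e-08). Next came the B-MYB gene MYBL2 (-1.27), the licensing inhibitor geminin, GMNN (-1.23), the sterol precursor enzyme ACAT2 (-1.19), GINS2 (-1.19), the BCL2 relative BCL2A1 (-1.19), CDC45 (-1.17), ZNF367 (-1.15) and the lipase inhibitor G0S2 (-1.15). Geminin stood at 7.64, 8.32, 13.2 and 10.4 CPM in LRCs and 21.9, 19.9, 26.6 and 24.3 CPM in non-LRCs. Replication genes made up 3 of the 10.

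Whether the RKO effect differed from that in the other lines was tested as a difference of differences, in 1 fit of the 48 sorted samples. Against the mean effect of the other 5 lines, 2714 of 16603 genes differed (16.3%), 1511 with a higher RKO effect (9.1%) and 1203 with a lower one (7.25%). Against SW48, placed in the same CCS2 subgroup as RKO by the study, 907 differed (5.46%), 570 higher (3.43%) and 337 lower (2.03%). Against DLD1, 974 differed (5.87%), 675 higher (4.07%) and 299 lower (1.8%). Some of these counts rested on single libraries. Without non-LRC replicate 3, 800 genes were lower than in the other 5 lines. The count lower than in SW48 was 190 without LRC replicate 1 and 215 without non-LRC replicate 4. The count lower than in DLD1 was 197 without LRC replicate 4, 151 without non-LRC replicate 3 and 186 without non-LRC replicate 4.

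The p53 targets were among the groups whose effect was higher in RKO than in the other lines. The difference passed for 14 of 25 against the mean of the 5 lines and for 12 against DLD1, all higher in RKO. Their median fold change was 0.75 in RKO, 0.43 in SW48, 0.12 in HT55, 0.01 in SW948, 0.00 in DLD1 and 0.13 in HCT15. The RKO median is from the fit of its 8 samples and the others are from the fit of 48. Against SW48, 4 were higher and 1 lower. The 1 lower was CDKN1A, whose effect was 1.15 smaller than in SW48 (difference -1.15, adjusted p = 0.0328) and did not differ detectably from the mean of the 5 lines (-0.18, adjusted p = 0.752). The call of CDKN1A against SW48 was lost without LRC replicate 2 or 4 and without non-LRC replicate 4. RRM2B, at a difference of 1.43 (adjusted p = 3.597e-13), and MDM2, at 0.82 (adjusted p = 2.41e-07), showed a higher RKO effect than the mean of the 5 lines. Against SW48 the difference of RRM2B passed (1.04, adjusted p = 2.382e-06) and that of MDM2 did not (0.16, adjusted p = 0.565). Mitochondrially encoded genes were higher in RKO for 12 of 13 against the 5 lines and against DLD1, and for 1 against SW48. Leaving out single RKO samples changed these counts for the mitochondrial genes, to 8 against the 5 lines without LRC replicate 1 or non-LRC replicate 4, and to 5 against DLD1 without LRC replicate 2 or non-LRC replicate 4 and 6 without LRC replicate 1. The HES1 effect exceeded the mean of the 5 lines by 3.95 (adjusted p = 3.118e-06), that of SOX9 by 2.02 (adjusted p = 6.739e-15) and that of CDC20B by 5.02 (adjusted p = 4.185e-09).

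Lower effects in RKO were found for 18 of 36 DNA replication genes, 18 of 26 splicing factors and 11 of 32 nuclear respiratory genes against the 5 lines. The replication count was 7 without LRC replicate 1, 12 without LRC replicate 2 and 11 without non-LRC replicate 3, and the respiratory count was 6 without non-LRC replicate 3. Against SW48 a lower effect passed for 11 splicing factors and 1 replication gene. Against DLD1 these counts were 4 and 1. The smallest counts among fits that left out 1 RKO sample were 6 and 0 against SW48 and 2 and 0 against DLD1. For mitosis genes no difference passed against the 5 lines, SW48 or DLD1, and up to 3 passed against the 5 lines when 1 sample was left out. Their medians, taken as for the p53 targets, were -0.60 in RKO, -0.62 in SW48, -0.52 in DLD1, 0.07 in HT55, 0.02 in SW948 and 0.37 in HCT15. For replication the medians were -0.69 in RKO, -0.36 in SW48, -0.51 in DLD1, 0.04 in HT55, -0.02 in SW948 and 0.14 in HCT15. The collagenase MMP1 rose in RKO by 1.47, and its effect was 2.91 below the mean of the other lines (difference -2.91, adjusted p = 0.0101). Its log2 fold change was 5.63 in HT55, 5.04 in SW948, 1.83 in SW48, 6.58 in DLD1 and 2.90 in HCT15.

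**Figure D4:**
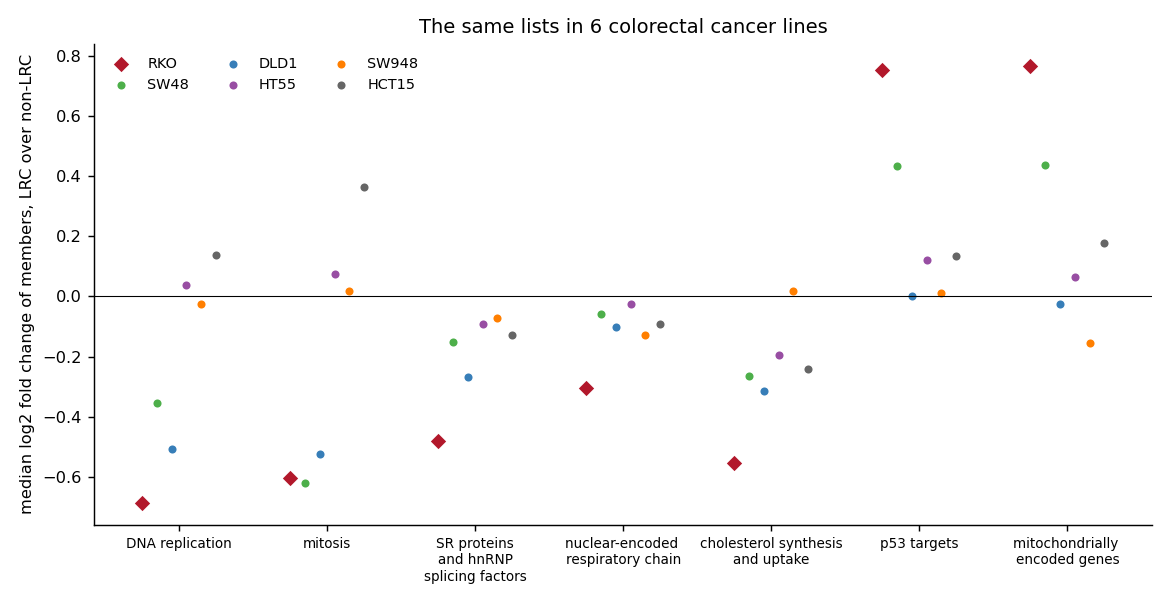
The median log2 fold change, LRC over non-LRC, of the members of each of 7 lists is plotted for the 6 lines, 1 symbol per line. For p53 targets RKO lies highest (0.75, then SW48 at 0.43), and for splicing factors it lies lowest (-0.48). RKO values are from the fit of its 8 samples and those of the other lines from the fit of 48.

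The dye itself was checked in unsorted DLD1 cells labelled day 5, with 4 CFSE and 4 unlabelled samples. CFSE changed 1530 of 13555 genes tested (11.3%), 752 higher (5.55%) and 778 lower (5.74%). These counts depended on single libraries: without CFSE replicate 1 they were 62 and 58, without CFSE replicate 2 they were 144 and 145, without unlabelled replicate 3 they were 156 and 207, and without unlabelled replicate 4 the genes higher were 487. Of the 5279 genes called in RKO, 5024 were tested for the dye, of which 75 passed in the same direction as in RKO and 658 in the opposite one. Replication and mitosis genes were opposite: 31 of 36 and 28 of 35 were higher with the dye and none lower, at medians of 0.83 and 0.69. These counts were 10 and 5 without CFSE replicate 1, 21 and 14 without CFSE replicate 2, and 21 and 14 without unlabelled replicate 3, at medians of 0.76 to 0.83 for replication and 0.68 to 0.69 for mitosis. The mitochondrially encoded genes (0 of 13) and nuclear respiratory genes (0 of 32) gave no dye call, and the splicing factors gave 5 of 26 higher. The dye median of the mitochondrially encoded genes was -0.32, and 0.006 without unlabelled replicate 1. For p53 targets, 5 were higher with the dye (AEN, PLK3, DDB2, FAS and GDF15) and BBC3 was lower, at a list median of 0.19. Without CFSE replicate 1 or 2 or unlabelled replicate 3, none of the p53 targets or splicing factors was called higher. GDF15 rose by 1.14 (adjusted p = 0.0193) and MYH15 by 1.18 (adjusted p = 0.0105) with the dye, the direction they had in RKO LRCs. The dye was not tested in RKO, and what it contributes there cannot be told from DLD1.

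**Figure D5:**
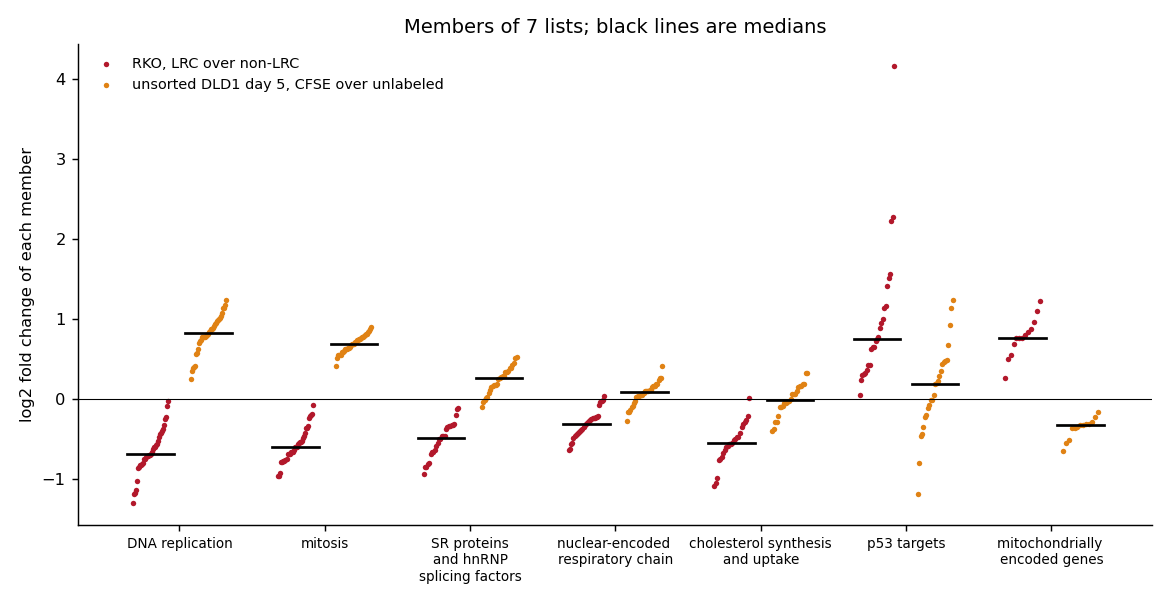
Each point is the log2 fold change of 1 member of 7 gene lists, for RKO LRC over non-LRC and for CFSE over unlabelled in unsorted DLD1, with black lines at the medians. The replication list lies at -0.69 in RKO and 0.83 with the dye, and the mitochondrially encoded genes at 0.77 and -0.32. The last median was 0.006 without unlabelled replicate 1, and no mitochondrially encoded gene was called for the dye.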

How the data were processed

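RNA-seq of 4 RKO LRC and 4 non-LRC samples, 40 sorted samples of the other 5 lines and 8 unsorted DLD1 samples of day 5 was used. Per the labels, RNA was purified with RNeasy Micro kits and libraries were made with Illumina TruSeq kits, and whether strand was kept is not given in the sources used here. The authors deposited raw counts per gene, and the submitters' processing notes name TopHat, HTSeq, DESeq and the hg19 genome. Of 54127 genes listed, 39260 (72.5%) had a symbol in the tables used here. The HTSeq summary lines were left out of library sizes and tests.

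Counts were tested in R 4.3.3 with edgeR 4.0.16 (TMM scaling, quasi-likelihood test, two-sided) on genes that reached 10 counts in 4 or more samples, with a Benjamini-Hochberg threshold of 0.05 over all genes tested. A sample's level is its CPM on TMM-scaled library sizes. Fold changes are edgeR's log2 estimates, LRC minus non-LRC, and their SE was taken from the F statistic. Differences between lines were contrasts in 1 fit of 48 samples. DESeq2 1.42.0, other scalings and filters, a replicate block and leaving out samples were alternatives, and log2 CPM used a prior count of 2 (or 0.5). The code was tested on simulated counts. Library measures were compared by exact permutation with SciPy 1.17.1.

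Genes were named by rule. It took the 10 largest changes in each direction among protein-coding genes called with no overlap and a mean of at least 5 CPM over the 8 samples, the 3 members of lowest p in each of 42 lists, genes fixed by role, and the 5 largest differences from the other lines in each direction within the same limits on level, call in RKO and gene type. Further members are given as examples, chosen after their values were seen. The members and lists were chosen with earlier results of these data known. Of 989 list entries 975 were matched by symbol, and the rest are not analysed here. Some genes are counted in their lists but not reported here by name. Promoter sequences are RefSeq's on GRCh38.p14, a different build from the counts, and were matched by symbol.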

Additional observations from a re-analysis of the deposited data

Results flagged for a closer look

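Single samples lay far from the other 3 of their group in 10 of the 340 groups of 4 looked at, by the ratio of the gap to the range, and chance flags about 1 in 20 groups. In the LRCs these were CD82 at 50.6 CPM, ENO1 at 1619 CPM, ITGA3 at 335.4 CPM, MMP10 at 8.74 CPM and H2AC6 at 17.0 CPM. In the non-LRCs they were FAR2 at 29.1 CPM, KRT15 at 2.22 CPM, LGR5 at 0.118 CPM and ABCG1 at 0.302 CPM. The share of reads on the 20 highest genes was 11.3% in non-LRC replicate 3, above the other non-LRCs.

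The RKO effect differed from that of other lines, by the test of the difference itself, for 1511 genes above and 1203 below the mean of the other 5 lines, 570 above and 337 below SW48, and 675 above and 299 below DLD1. Among protein-coding genes called in RKO with a mean of at least 5 CPM over its 8 samples, the 5 largest differences were CDC20B (5.02), GDF15 (3.51), SESN3 (3.37), CD82 (3.12) and MYH15 (3.04) above the mean of the 5 lines, on the log2 scale. INPP5D (4.98), FOXJ1 (4.93) and HES1 (3.95) are larger than most of these and lie below that mean level. Among the RKO samples, INPP5D and FOXJ1 reached 10 counts only in the LRCs. Below the mean of the 5 lines were MMP1 (-2.91), the BCL2 relative BCL2A1 (-2.69), ZNF474 (-1.65), the AP-1 factor BATF3 (-1.64) and the exonuclease EXO5 (-1.61). For BCL2A1 the edgeR differences from SW48 (-0.998, adjusted p = 0.731) and from DLD1 (-3.56, adjusted p = 0.302) did not pass. Its log2 fold change ran from -0.174 in SW48 to 3.50 in SW948. The EXO5 call in RKO itself was lost in 6 of 12 alternative settings.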

How the results depend on the processing

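The 5279 calls in RKO stayed within 1.5 times their number under DESeq2 (2576 higher and 2641 lower), library-size scaling (2570 and 2517), no filter (2729 and 2743), at least 10 counts in every sample (2514 and 2531) and the fit of 48 samples (2414 and 1972). Leaving out each sample gave 2123 to 2520 higher and 2183 to 2596 lower. Requiring a log2 fold change of at least 1 as well left 463 and 45. Same-numbered RKO samples did not deviate together (correlations of -0.044, -0.091, -0.066 and 0.009 between their deviations). These values cannot show whether they were sorted from the same culture, which the labels do not give. With the number as a block the RKO counts were 2298 and 2440, and the other counts grew: to 1944 below the 5 lines, 1181 above and 901 below SW48, 1309 above and 792 below DLD1, and 1367 and 1262 for the dye. The block ended the call of RPS28 among the genes named.

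Counts of differences between lines moved more. Against DLD1 they were 1235 above and 704 below in a fit of those 2 lines, and 468 below with DESeq2. Leaving out each RKO sample gave 800 to 1152 genes below the 5 lines, 190 to 347 below SW48 and 151 to 317 below DLD1. For the dye, DESeq2 called 1261 higher and 1197 lower, and leaving out each sample gave 62 to 772 and 58 to 749. The cause was not tested. No call of a named gene changed direction. Some list medians did change sign between fits that left out single RKO samples. The median of the NRF2 targets ran from -0.062 to 0.064, and that of the cytosolic ribosomal proteins from -0.055 to 0.05. For mitosis genes the median difference from the SW48 effect ran from -0.129 to 0.201. Of 145 named genes called, 129 kept their call in every setting, of 12, in which they were tested. A gene too low to be tested in a setting was not counted as lost there. Those that lost their call included MKI67, EXO5, RPS28, LPCAT3 and, in the fit of 48 samples, MYC. Depth limits genes near 1 CPM, such as CDH1, KRT19 and PDK4, more than the others.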

Other observations

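Some genes of the multiciliated cell programme were higher in RKO LRCs, among them FOXJ1, MCIDAS and CCNO. The genes looked at were picked after the values of CDC20B had been seen, and no test was made of them as a group. In multiciliated cells, MCIDAS and CCNO act early in a programme that amplifies centrioles, FOXJ1 switches on the genes of motile cilia, and both MCIDAS and CCNO neighbour CDC20B on chromosome 5. MCIDAS stood at 20.1, 20.4, 19.4 and 20.3 CPM in LRCs and 9.64, 8.68, 8.68 and 9.997 CPM in non-LRCs, a log2 fold change of 1.11 (SE 0.095, adjusted p = 4.985e-07 with edgeR). CCNO gave 32.6, 32.1, 28.9 and 21.9 CPM against 14.2, 14.1, 16.2 and 14.4 CPM, at 0.97 (SE 0.118). FOXJ1 had 85, 92, 81 and 71 reads in LRC replicates 1 to 4 and 0, 4, 2 and 1 reads in the non-LRCs, a mean of 5.39 ± 1.45 CPM (SD, n = 4) against 0.113 ± 0.106 CPM, at a log2 fold change of 5.43. For MCIDAS and CCNO the groups did not overlap, as for 37.2% of all genes tested. FOXJ1 reached the filter of 10 counts in 4 samples only through the LRCs, which fixed its lack of overlap in advance. Against the mean effect of the other 5 lines, the RKO effect was higher by 4.93 for FOXJ1 (adjusted p = 6.132e-04), 1.49 for MCIDAS and 1.04 for CCNO. MYB, another factor of the programme, rose by 0.98 and RFX3, a cilium regulator, by 0.33. Geminin (GMNN), a relative and antagonist of MCIDAS, fell by 1.23 on the log2 scale. E2F4, an E2F factor that acts with MCIDAS, fell by 0.37 (88.6 against 114.3 CPM, adjusted p = 7.653e-04 with edgeR). PLK4 (0.20), RFX2, TP73 and CCDC78 did not pass, and GMNC and DEUP1 had no read in any RKO library. The neighbouring genes GPX8 (-0.02), DHX29 (-0.09), MTREX (-0.14) and PLPP1 did not pass. In the unsorted DLD1 control the dye difference was -2.53 for FOXJ1 (adjusted p = 0.0472) and -2.10 for CDC20B (adjusted p = 0.0657).

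Other groups held both directions, beside 20.4% higher and 21% lower of all genes tested. Of 16 histone genes tested, 6 rose and 7 fell. The replication-linked clustered genes H2BC5 (1.60), H4C8 (1.45), H2AC6 (1.44) and H2AC11 (1.09) rose, while the variants H2AZ1 (-0.85), H2AX (-0.79) and H3-3A (-0.45) fell. Reads of clustered histone genes may be split between near-identical copies, so single genes are uncertain. Of 26 actin cytoskeleton genes, 6 rose (23.1%) and 7 fell (26.9%), with ACTA2 (2.51) and TAGLN2 (1.94) far from ACTB (-0.59). Of 20 AP-1 and immediate early genes, 9 rose and 6 fell, with KLF10 (1.43) and ATF3 (1.39) at one end and FOSL1 (-0.71) at the other, and the number that rose was 5 without LRC replicate 1 or 2. YAP-TEAD targets counted 5 higher (29.4%) and 4 lower (23.5%) of 17, from AMOTL1 (3.62) and NT5E (1.67) to CCN1 (-0.76). In TGF-beta and BMP response, 6 rose and 1 fell of 18, with PMEPA1 (2.23), SMAD3 (1.86) and BMP2 (1.20) highest. Of 30 hypoxia and glycolysis genes, 8 rose (26.7%) and 4 fell (13.3%). CA9 (1.38), ADM (1.37) and EPAS1 (1.31) were among those that rose. The glycolytic enzymes ENO1 (-0.60), TPI1 (-0.39) and PGAM1 (-0.38), with HIF1A (-0.26), were those that fell. Without LRC replicate 3, 13 rose, VEGFA and HK2 among those added, without LRC replicate 1 or non-LRC replicate 3 only 5 did, and without LRC replicate 1 the number that fell was 8.

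Among the smaller groups, 6 of 25 lysosome and autophagy genes rose (24%, near the 20.4% of all genes tested) and none fell. GABARAPL1 lay at 0.70, and ATP6V0D1 passed as lower without LRC replicate 3 or non-LRC replicate 1. The clock counted 5 higher and 0 lower of 17, led by BHLHE41 (1.82) and RORA (1.06). Of 11 NF-kB targets and chemokines, 6 rose and 2 fell. Without LRC replicate 1 only 3 rose. The chemokine CXCL8 had 3.06, 2.83, 1.30 and 2.35 CPM in LRCs against 0.214, 0.181, 0.151 and 0.353 CPM in non-LRCs, and it was too low to be tested when any LRC sample was left out. Complement genes gave 5 higher and 1 lower of 11, with clusterin, CLU, at 0.84. NRF2 targets gave 5 in each direction of 17 (3 higher without LRC replicate 1 or 2 or non-LRC replicate 4, and 3 lower without LRC replicate 4), fatty acid synthesis 1 higher and 6 lower of 10, and keratins 3 higher and 1 lower of 5. Of 11 genes of epithelial and mesenchymal state, 2 rose (ST14, 1.22, and CLDN4, 0.91) and 2 fell (AXL, -0.58, and ESRP2, -0.26), and VIM (-0.14) did not pass. ST14 was too low to be tested when any LRC sample was left out and lost its call without non-LRC replicate 4. The call of CLDN4 was lost without LRC replicate 1 or 2, without non-LRC replicate 1 or 4, with DESeq2, with no filter and in the fit of 48 samples, and that of ESRP2 was lost in the last. Of 6 enterocyte and goblet genes tested, CA2 (-0.68) fell and none rose, and without LRC replicate 2 or non-LRC replicate 1 or 3 there was 1 that rose. Primary cilium genes counted 5 higher (17.2%) and 2 lower (6.9%) of 29, beside 20.4% and 21% of all genes tested.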
